A study of Mus musculus with 3 samples.

Results

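The genes described here are the glucocorticoid receptor gene Nr3c1 and 8 genes known to respond to glucocorticoid hormone, Tsc22d3, Fkbp5, Per1, Sgk1, Klf9, Irs2, Txnip and Ddit4, out of 32285 genes counted. They were matched by symbol, and each was found once. The set was selected on UMI levels by genotype seen in these same libraries, so its differences are a description and carry no test. The thymus of 1 female mouse of 4 weeks was measured per genotype by single-cell RNA sequencing. The genotypes were p53 AD/-, p53-/- and p53+/-, so all 3 mice carried a germline change of Trp53, which encodes the transcription factor p53. What the AD allele is stays unstated in the labels, the series title speaks of p53 dimers, and the design text names as WT the group whose label reads p53+/-. The strain labels name BALB/C beside C57BL7 in p53 AD/-, C57BL8 in p53-/- and C57BL6 in p53+/-, and were taken, as an assumption, for 1 mixed background. The question put to the 9 genes was which of them were low in p53 AD/-, and which of those were low in p53-/- as well.

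The glucocorticoid receptor sits in the cytoplasm in a complex with heat shock protein 90 and its partners until a steroid such as corticosterone binds it. It then enters the nucleus and binds DNA at an inverted repeat of a short half-site, or alters the work of other factors there. CD4-positive CD8-positive (DP) thymocytes are known for their sensitivity to glucocorticoid, which can kill them, and Tsc22d3, Fkbp5 and Per1 are among the classical targets of the receptor. Fkbp5 encodes a chaperone partner that lowers the receptor's affinity for hormone. Tsc22d3 encodes GILZ, a leucine zipper protein that restrains inflammatory signals. Ddit4 encodes REDD1, a brake on the growth kinase complex mTORC1 that also answers to hypoxia and energy stress. Per1 is a repressor of the circadian clock, Sgk1 a kinase related to AKT, Klf9 a zinc finger factor, Irs2 an adaptor below the insulin receptor and Txnip an alpha-arrestin that binds thioredoxin and limits glucose uptake.

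The start regions of Sgk1 and of the 4 members on which the results turn are shown first, as the DNA beside each start on which factors can act. The windows come from RefSeq on GRCm38.p6 and reach from 250 bases before to 50 bases after an annotated start. RefSeq gave 16 windows for 8 of the 9 members. Capitals mark searched letters, on either strand: the receptor half-site AGAACA, the E-box CACGTG to which clock and MYC family factors bind, and the core TGACGTC of a cAMP response element. The full receptor element was searched as AGAACA, any 3 bases and the same half-site in reverse complement. The window with most matches is shown for each member, or the first where they tied.
Sgk1 (chr10:21993640-21993939, plus strand): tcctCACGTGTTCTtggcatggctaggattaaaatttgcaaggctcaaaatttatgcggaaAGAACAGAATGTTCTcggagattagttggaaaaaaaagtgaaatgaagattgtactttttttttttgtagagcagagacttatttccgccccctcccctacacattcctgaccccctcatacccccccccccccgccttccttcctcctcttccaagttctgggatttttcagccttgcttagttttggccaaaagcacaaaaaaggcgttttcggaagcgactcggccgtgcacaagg
Tsc22d3 (chrX:140600473-140600772, minus strand): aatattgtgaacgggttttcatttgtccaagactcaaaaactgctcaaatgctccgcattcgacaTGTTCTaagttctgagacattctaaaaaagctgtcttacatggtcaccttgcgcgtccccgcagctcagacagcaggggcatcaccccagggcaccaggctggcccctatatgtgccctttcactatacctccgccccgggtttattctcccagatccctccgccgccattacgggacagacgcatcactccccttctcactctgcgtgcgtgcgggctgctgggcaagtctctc
Per1 (chr11:69098699-69098998, plus strand): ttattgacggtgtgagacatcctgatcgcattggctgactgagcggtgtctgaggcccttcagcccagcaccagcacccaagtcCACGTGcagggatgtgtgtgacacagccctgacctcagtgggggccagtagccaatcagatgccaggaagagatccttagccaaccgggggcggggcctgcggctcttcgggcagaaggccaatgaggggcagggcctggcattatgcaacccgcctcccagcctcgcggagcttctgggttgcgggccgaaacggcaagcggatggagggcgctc
Irs2 (chr8:11008880-11009179, minus strand): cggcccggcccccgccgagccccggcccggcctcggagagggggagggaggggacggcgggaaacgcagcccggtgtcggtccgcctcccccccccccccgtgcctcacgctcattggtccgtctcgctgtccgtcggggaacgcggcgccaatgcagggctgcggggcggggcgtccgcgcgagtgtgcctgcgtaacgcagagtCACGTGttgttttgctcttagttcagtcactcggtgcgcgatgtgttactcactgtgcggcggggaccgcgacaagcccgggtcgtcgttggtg
Ddit4 (chr10:59951721-59952020, minus strand): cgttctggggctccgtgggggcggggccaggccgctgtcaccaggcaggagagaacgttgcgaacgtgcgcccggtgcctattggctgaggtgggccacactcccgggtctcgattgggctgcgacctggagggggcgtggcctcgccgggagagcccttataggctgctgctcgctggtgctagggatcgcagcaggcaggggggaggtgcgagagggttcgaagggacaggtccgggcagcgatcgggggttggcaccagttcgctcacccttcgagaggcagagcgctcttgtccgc
The full element was found in 3 of 32851 mouse windows (0.0091%), and 1 of these was the Sgk1 window above, where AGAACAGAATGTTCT began 189 bases before the start (chr10:21993701-21993715). The half-site was found in 19.0% of all windows, and among the members in windows of Sgk1 and in the Tsc22d3 window shown. The other Tsc22d3 windows, at other annotated starts, held no half-site. In the Sgk1 window shown, 2 of the 3 half-sites are the arms of the full element, and the third overlaps the E-box. The E-box was found in 7.15% of all windows, and among the members in those of Fkbp5, Irs2, Per1 and Sgk1. A looser form of the receptor element, shorter by 1 base at each end and with any base at the second place of each arm, was found in 0.475% of all windows and, apart from Sgk1, in Txnip at position -172. The cAMP response core was in 3.21% of windows and in the second Per1 window. Ddit4 and Klf9 held none of these letters in their windows. A match is a description of letters, and its absence says nothing about sites elsewhere.

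The libraries held 6308 barcodes and 27638820 unique molecular identifiers (UMIs, counted RNA molecules) in p53 AD/-, 9889 and 54164425 in p53-/-, and 8880 and 46498800 in p53+/-. Cells with at least 500 genes and under 10% mitochondrial UMIs numbered 6171 in p53 AD/-, 9543 cells in p53-/- and 8150 cells in p53+/-, and 15 to 29 barcodes were shared between pairs of libraries. Clusters were named from markers, and 5 thymocyte classes were large enough to compare: DN-like (CD4-negative CD8-negative), cycling, quiescent DP-like, selected (DP and early single-positive, SP) and mature SP-like. The quiescent DP-like class, led by Rag1, Cd8b1, Arpp21 and Themis, held 3616 p53 AD/- cells with a median of 1989 UMIs, 4860 p53-/- cells with 2278 UMIs and 4850 p53+/- cells with 2732 UMIs. The nuclear RNA Malat1 made up a median of 3.79% of the UMIs of p53 AD/- cells, against 7.38% of those of p53-/- cells and 6.08% of those of p53+/- cells. Under 1% of Malat1 was found in 19.4% of p53 AD/- cells, 0.82% of p53-/- cells and 1.09% of p53+/- cells. Levels are given as counts per 1000000 UMIs of a class (CPM). Erythroid markers summed in this class to 49.7 CPM in p53 AD/- (2 of 7 at 0), 135 CPM in p53-/- (1 of 7 at 0) and 429.7 CPM in p53+/- (1 of 7 at 0). Granulocyte markers summed to 5.07 CPM in p53 AD/- (3 of 7 at 0), 48.0 CPM in p53-/- (0 of 7 at 0) and 35.5 CPM in p53+/- (1 of 7 at 0). The part of the erythroid and granulocyte gaps in the values of the members was not tested. Trp53 itself stood at 74.1 CPM in p53 AD/-, against 46.3 in p53-/- cells and 60.4 in p53+/- cells. Its transcript was thus counted in the library labelled p53-/-, and its level checks the labels little.

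In quiescent DP-like cells the members showed 3 patterns. Tsc22d3 and Ddit4 were low in p53 AD/- and about as low in p53-/-, both against p53+/-. Irs2 and Per1 were lowest in p53 AD/- and highest in p53-/-, with p53+/- in between, and Fkbp5 and Sgk1 stood in that same order with smaller gaps. Nr3c1 and Txnip differed by less than 1.5-fold between any 2 libraries, and Klf9 was counted too rarely to order. With 1 library per genotype, each ratio has a 95% interval that covers counting error only and says nothing about the spread between mice. The 3 comparisons share libraries, so they are given side by side and do not support one another.

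**Figure D1:**
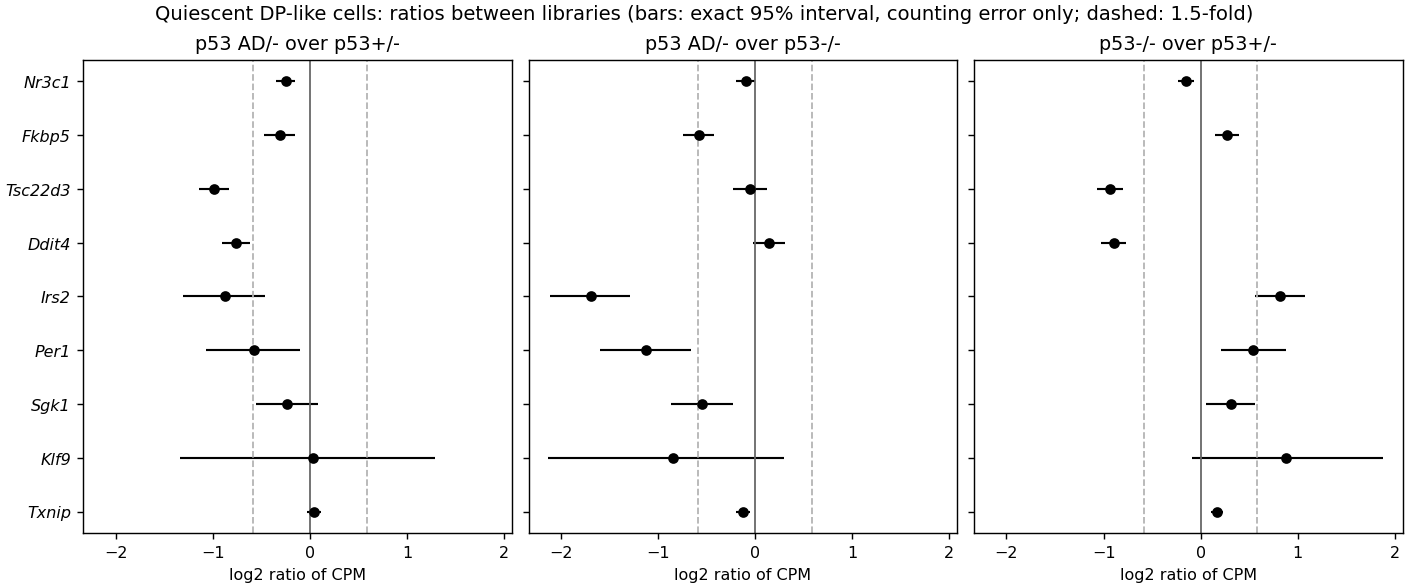
Log2 ratio of the CPM of each member between libraries in quiescent DP-like cells, with p53 AD/- over p53+/- on the left, p53 AD/- over p53-/- in the middle and p53-/- over p53+/- on the right. Points are ratios of summed UMIs, bars exact 95% intervals for counting error, and dashed lines 1.5-fold. Tsc22d3 and Ddit4 lie beyond the lower dashed line on the left and right and near 0 in the middle, while Irs2 lies beyond it on the left and in the middle and beyond the upper line on the right.

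Tsc22d3 had 54.0 CPM in p53 AD/- (426 UMIs), 56.1 CPM in p53-/- (682 UMIs) and 107 CPM in p53+/- (1529 UMIs). The p53+/- library was the high one, and the Poisson intervals of p53 AD/- (49.0 to 59.4 CPM) and p53-/- (51.9 to 60.4 CPM) overlapped. The log2 ratio of p53 AD/- was -0.99 against p53+/- (-1.14 to -0.83) and -0.053 against p53-/- (-0.23 to 0.12), and that of p53-/- against p53+/- was -0.93 (-1.06 to -0.80). Ddit4, the mTORC1 brake, had 67.9 CPM in p53 AD/- (535 UMIs), 61.6 CPM in p53-/- (749 UMIs) and 115 CPM in p53+/- (1638 UMIs). Here too p53+/- stood alone, with log2 ratios against it of -0.76 in p53 AD/- (-0.90 to -0.61) and -0.90 in p53-/- (-1.02 to -0.77). The ratio of p53 AD/- against p53-/- was 0.14 (-0.023 to 0.30). Tsc22d3 and Ddit4 were the 2 members at least 1.5-fold lower than in p53+/- in both p53 AD/- and p53-/-. Of all genes, 15.4% were as low in p53 AD/- and 3.77% in p53-/-. The share of all genes low in both was not computed, so nothing is read from this count. In cells matched on their Malat1 share, 2243 per library, the ratios against p53+/- were -1.20 in p53 AD/- and -0.84 in p53-/- for Tsc22d3, and for Ddit4 they were -0.74 in p53 AD/- and -0.88 in p53-/-.

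Irs2, the insulin signalling adaptor, had 7.86 CPM in p53 AD/- (62 UMIs), 25.4 CPM in p53-/- (309 UMIs) and 14.4 CPM in p53+/- (206 UMIs). The intervals, 6.03 to 10.1 CPM in p53 AD/-, 22.7 to 28.4 CPM in p53-/- and 12.5 to 16.5 CPM in p53+/-, did not touch. The log2 ratio of p53 AD/- was -0.87 against p53+/- (-1.31 to -0.46) and -1.69 against p53-/- (-2.11 to -1.29), while that of p53-/- against p53+/- was 0.82 (0.56 to 1.08). Per1, the clock repressor, had 6.47 CPM in p53 AD/- (51 UMIs), 14.1 CPM in p53-/- (171 UMIs) and 9.65 CPM in p53+/- (138 UMIs). Its log2 ratio in p53 AD/- was -0.58 against p53+/- (-1.07 to -0.10), just short of 1.5-fold (0.585), and -1.12 against p53-/- (-1.60 to -0.66). In p53-/- Per1 was 0.54 against p53+/- (0.21 to 0.88), also short of 1.5-fold. After matching on Malat1, Irs2 in p53 AD/- was -0.64 against p53+/- and -1.55 against p53-/-, and Per1 was -0.38 against p53+/- and -0.96 against p53-/-.

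Fkbp5, the receptor's own chaperone partner, stood at 60.0 CPM in p53 AD/-, against 89.7 in p53-/- cells and 74.4 in p53+/- cells, from 473 to 1091 UMIs. Its log2 ratio in p53 AD/- was -0.31 against p53+/- (-0.47 to -0.15) and -0.58 against p53-/- (-0.74 to -0.42), just inside 1.5-fold, and -0.72 after matching on Malat1. Sgk1, whose window held the full element, stood at 15.3 CPM in p53 AD/-, against 22.4 in p53-/- cells and 18.05 in p53+/- cells. The interval of its ratio lay below 0 for p53 AD/- against p53-/- (-0.54, -0.86 to -0.23) but not against p53+/- (-0.23, -0.56 to 0.083), which turned to 0.15 after matching on Malat1. In p53-/- against p53+/-, Fkbp5 was at 0.27 (0.15 to 0.39) and Sgk1 at 0.31 (0.058 to 0.56). For both genes the class as a whole had its lowest value in p53 AD/- and its highest in p53-/-, at less than 1.5-fold in each pair, but this order did not hold throughout. For Fkbp5 in p53-/- against p53+/-, 2 of the 4 clusters of the class with at least 100 cells in every library lay below 0 (-0.48 to 0.36 over the 4).

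The receptor gene Nr3c1 stood at 162 CPM in p53 AD/- (1279 UMIs), 174 CPM in p53-/- (2112 UMIs) and 193 CPM in p53+/- (2754 UMIs). Its log2 ratio in p53 AD/- was -0.25 against p53+/- (-0.35 to -0.15) and -0.098 against p53-/- (-0.20 to 0.0028), and in p53-/- it was -0.15 against p53+/- (-0.23 to -0.068). The receptor transcript thus had its highest class value in p53+/-, with gaps well inside 1.5-fold. The values do not order p53 AD/- and p53-/-. Txnip, the arrestin of glucose uptake, stood at 339 CPM in p53 AD/-, against 369 in p53-/- cells and 328 in p53+/- cells. Its log2 ratio in p53 AD/- was 0.045 against p53+/- (-0.024 to 0.11) and -0.12 against p53-/- (-0.19 to -0.055). Klf9 was rare, with 1.14 CPM in p53 AD/- (9 UMIs), 2.06 CPM in p53-/- (25 UMIs) and 1.12 CPM in p53+/- (16 UMIs), and was 35.1 to 80.5 times higher in another cluster of the same library. Whether these UMIs were free RNA was not tested, and its ratio of p53 AD/- against p53-/- was -0.85 (-2.13 to 0.30).

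All 9 members had at least 30 UMIs over the 3 libraries in this class. Against p53+/-, 3 stood at least 1.5-fold lower in p53 AD/- (Tsc22d3, Irs2 and Ddit4), where 15.4% of 11693 genes did. Against p53-/-, 3 did in p53 AD/- (Irs2, Per1 and Klf9), where 22.1% of 11692 genes did. In p53-/- against p53+/- there were 2 lower (Tsc22d3 and Ddit4), where 3.77% of genes were, and 2 at least 1.5-fold higher (Irs2 and Klf9), where 6.72% were. No member was 1.5-fold higher in p53 AD/- than in p53+/-, where 6.83% of genes were, or than in p53-/-, where 7.05% were. The members were chosen with these contrasts in view, so nothing is read from the counts. Their median log2 ratio in p53 AD/- was -0.31 against p53+/- and -0.54 against p53-/-, beside -0.054 and -0.14 over all genes tested. In p53-/- against p53+/- it was 0.27, beside 0.090 over all genes. TMM scaling raises every ratio of p53 AD/- against p53-/- in this class by 0.14. The near-0 ratios of that pair then change sign, to 0.089 for Tsc22d3, 0.044 for Nr3c1 and 0.017 for Txnip.

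Over the stages each member had its own profile, given here as the lowest to the highest of the 3 libraries in CPM. Txnip was highest in quiescent DP-like cells (328 to 369), next in selected (192 to 241) and mature SP-like cells (160.4 to 234), which overlap, and lowest in DN-like (58.2 to 69.2) and cycling cells (58.3 to 66.8), which overlap too. Ddit4 ran from quiescent DP-like cells (61.6 to 115) over selected (39.1 to 85.7), mature SP-like (16.1 to 38.3) and cycling (22.6 to 31.7) to DN-like cells (14.3 to 20.8) by its median. Its selected and mature classes did not overlap, nor did its cycling and DN-like classes. Irs2 and Sgk1 also had their highest median in quiescent DP-like cells, and so had Tsc22d3, and for all 3 the next class overlapped it. The 5 Tsc22d3 classes formed a chain in which each overlapped the next, down to DN-like cells (17.1 to 36.7).

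Fkbp5 ran the other way. It was highest in DN-like (209.7 to 423) and cycling cells (144 to 213), lower in quiescent DP-like cells (60.0 to 89.7) and lowest in selected (37.7 to 55.7) and mature SP-like cells (28.9 to 37.9). DN-like and cycling cells overlapped, as did selected and mature SP-like cells, and quiescent DP-like cells stood apart from both pairs. Nr3c1 spanned 83.9 to 234 in DN-like cells, which overlapped every other class. Its quiescent DP-like range (162 to 193) lay just above the cycling one (129.98 to 161), which overlapped selected cells (125 to 150.6), and mature SP-like cells lay below these (67.2 to 118). Per1 had its highest median in selected cells (12.3 to 24.7), whose markers Cd5, Tox and Itm2a are known to follow signals of the antigen receptor, but overlapped its DN-like, quiescent DP-like and mature SP-like ranges there. Klf9 was low in every thymocyte class, at 13.1 CPM in p53+/- DN-like cells at most. In another cluster of the same library it was 74.3 to 323 times higher than in cycling cells and 20.2 to 22.4 times higher than in selected cells. For p53 AD/- mature SP-like cells this was 22.3 times, and for Sgk1 in p53-/- DN-like cells (5 UMIs) 49.4 times. Whether these UMIs were free RNA was not tested.

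**Figure D2:**
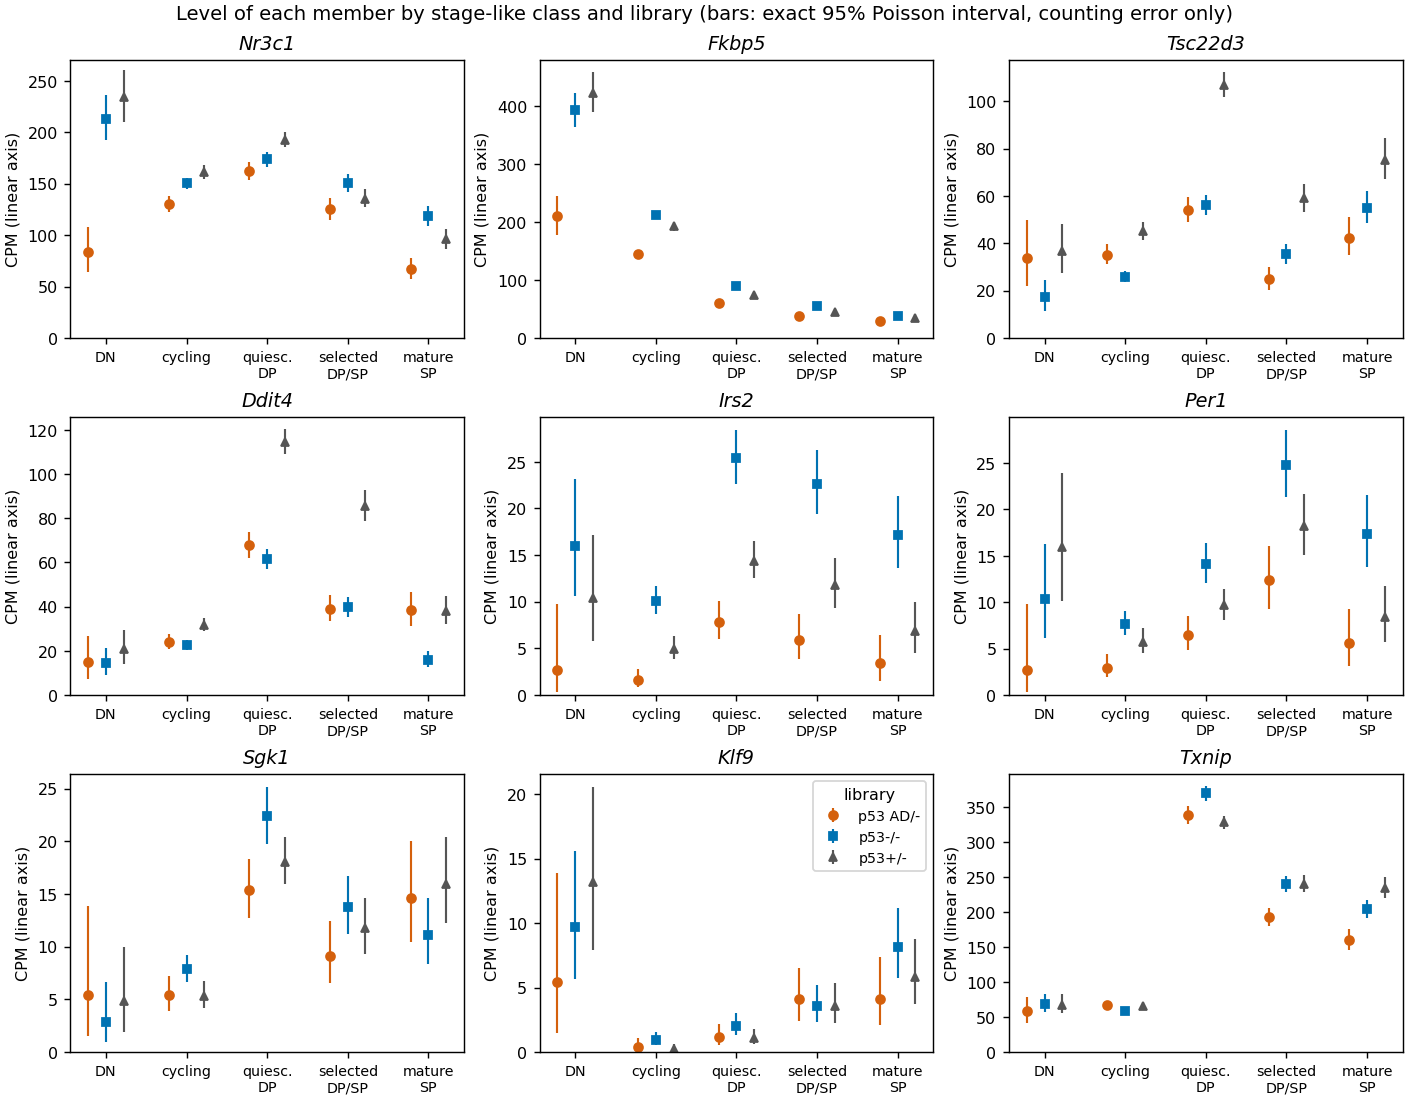
CPM of each of the 9 members (linear axes, each panel with its own scale) in 5 thymocyte classes, for the p53 AD/- (circles), p53-/- (squares) and p53+/- (triangles) libraries, with exact 95% Poisson intervals for counting error. Tsc22d3 and Ddit4 in quiescent DP-like and selected cells show the triangle alone on top, while Irs2 shows the circle lowest and the square highest in all 5 classes.

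Outside quiescent DP-like cells, Irs2 kept its order in each of the other 4 classes. In selected cells it had 5.94 CPM in p53 AD/-, against 22.6 in p53-/- cells and 11.8 in p53+/- cells, and in cycling cells 1.60 CPM in p53 AD/-, against 10.1 in p53-/- cells and 4.94 in p53+/- cells. In mature SP-like cells it had 3.38 CPM in p53 AD/- (9 UMIs), 17.1 in p53-/- (80 UMIs) and 6.83 in p53+/- (27 UMIs), and in DN-like cells it had 2 UMIs in p53 AD/-, 28 UMIs in p53-/- and 15 UMIs in p53+/-. The p53 AD/- library was the lowest and p53-/- the highest throughout. The log2 ratio of p53 AD/- against p53-/- lay between -2.66 and -1.93 in these 4 classes, with each interval below 0. The place of p53+/- was less certain. Against it, the interval of p53 AD/- reached above 0 in mature SP-like (-1.02, -2.29 to 0.12) and DN-like cells (-1.94, -5.11 to 0.16). That of p53-/- against p53+/- reached below 0 in DN-like cells (0.62, -0.33 to 1.63). In p53 AD/- cycling cells Irs2 rested on 13 UMIs and was 32.0 times higher in another cluster of that library, and whether this was free RNA was not tested. Per1 in selected cells had 12.3 CPM in p53 AD/-, against 24.7 in p53-/- cells and 18.1 in p53+/- cells. In mature SP-like cells Per1 had 5.63 CPM in p53 AD/-, against 17.3 in p53-/- cells and 8.35 in p53+/- cells, and in cycling cells 2.95 CPM in p53 AD/-, against 7.65 in p53-/- cells and 5.76 in p53+/- cells. Its ratio of p53 AD/- against p53-/- was -1.62 (-2.52 to -0.82) in mature SP-like and -1.37 (-2.06 to -0.74) in cycling cells, with an interval of -1.47 to -0.56 in selected cells. Against p53+/- in mature SP-like cells, the interval of Per1 in p53 AD/- reached above 0 (-0.57, -1.55 to 0.35, from 15 and 33 UMIs). In DN-like cells, where Per1 had 2 UMIs in p53 AD/-, 18 UMIs in p53-/- and 23 UMIs in p53+/-, p53-/- was not the highest library.

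Tsc22d3 and Ddit4 went apart outside quiescent DP-like cells, in early as in later classes. In selected cells Tsc22d3 had 24.9 CPM in p53 AD/-, against 35.3 in p53-/- cells and 59.1 in p53+/- cells, with a log2 ratio of -0.50 for p53 AD/- against p53-/- (-0.84 to -0.18). In mature SP-like cells it had 42.4 CPM in p53 AD/-, against 55.04 in p53-/- cells and 75.4 in p53+/- cells, and the ratio of that pair was -0.38 (-0.71 to -0.051). In cycling cells these libraries stood the other way round, 35.2 CPM in p53 AD/- against 25.9 CPM in p53-/-, with p53+/- above both at 45.1 CPM. In DN-like cells Tsc22d3 against p53+/- was -0.12 in p53 AD/- (-0.87 to 0.59) and -1.10 in p53-/- (-1.79 to -0.42). Ddit4 against p53+/- was there -0.48 in p53 AD/- (-1.63 to 0.56) and -0.54 in p53-/- (-1.37 to 0.28). For Ddit4 in cycling cells these ratios were -0.40 (-0.66 to -0.16) and -0.49 (-0.69 to -0.29). Ddit4 in selected cells had 39.1 CPM in p53 AD/-, against 39.8 in p53-/- cells and 85.7 in p53+/- cells, the same picture as in quiescent DP-like cells. In mature SP-like cells Ddit4 had 38.3 CPM in p53 AD/- (102 UMIs), 16.1 CPM in p53-/- (75 UMIs) and 38.2 CPM in p53+/- (151 UMIs). There p53-/- alone was low. The ratio of p53 AD/- was 0.0037 against p53+/- (-0.37 to 0.38) and 1.25 against p53-/- (0.81 to 1.70), and that of p53-/- against p53+/- was -1.25 (-1.67 to -0.84). Whether the p53 AD/- ratio of Ddit4 differed between mature and earlier classes was not tested. Of the p53 AD/- mature SP-like cells 48.2% held under 1% Malat1, against 9.56% in p53-/- and 9.39% in p53+/-. After matching on that share, Ddit4 in p53 AD/- was at 0.54 against p53+/- and at 2.10 against p53-/-, and in p53-/- it was at -1.55 against p53+/-.

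DN-like cells were few, with 53 p53 AD/-, 143 p53-/- and 93 p53+/- cells. Nr3c1 there had 83.9 CPM in p53 AD/- (62 UMIs), 213 CPM in p53-/- (373 UMIs) and 234 CPM in p53+/- (338 UMIs). Fkbp5 had 209.7 CPM in p53 AD/-, against 393 in p53-/- cells and 423 in p53+/- cells. For both genes p53 AD/- stood apart from the other libraries, with log2 ratios against p53+/- of -1.48 (-1.89 to -1.09) for Nr3c1 and -1.01 (-1.28 to -0.76) for Fkbp5. In 35 cells per library matched on their Malat1 share these ratios were -0.69 for Nr3c1 and -0.63 for Fkbp5. Among the markers of the class, Il2ra and Notch1 were also lowest in p53 AD/-, and the other markers are not described here. Il2ra was at 269 CPM in p53 AD/-, against 498 in p53-/- cells and 522 in p53+/- cells. Notch1 was at 126 CPM in p53 AD/-, against 316 in p53-/- cells and 298 in p53+/- cells. Of all genes in DN-like cells, 28.8% were at least 1.5-fold lower in p53 AD/- than in p53+/-. In p53 AD/- 75.5% of the DN-like cells held under 1% Malat1, against 28.0% in p53-/- and 32.3% in p53+/-. The part of the marker gaps in Nr3c1 and Fkbp5 was not tested. Mature SP-like cells had Nr3c1 at 67.2 CPM in p53 AD/-, against 118 in p53-/- cells and 95.9 in p53+/- cells, but p53 AD/- was not the lowest library in 240 cells per library matched on their Malat1 share. Its log2 ratio in p53 AD/- there was -0.51 against p53+/- (-0.78 to -0.25), and 0.19 in matched cells. Against p53-/- it was -0.81 (-1.07 to -0.57), and -0.14 in matched cells.

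In the other classes the counts of members past 1.5-fold stood beside these backgrounds, and nothing is read from these counts either. Klf9 failed the minimum of 30 UMIs in cycling cells and Sgk1 in DN-like cells, so 8 members were counted in each of these. In p53 AD/- against p53+/-, 5 of 8 were lower in DN-like cells (28.8% of all genes), 2 of 8 in cycling cells (19.0%), 3 of 9 in selected cells (15.9%) and 2 of 9 in mature SP-like cells (16.1%). Of the 5 in DN-like cells, Per1 and Irs2 rested on 2 UMIs each in p53 AD/- and Klf9 on 4 UMIs. The intervals of Irs2 (-5.11 to 0.16) and Klf9 (-3.30 to 0.31) reached above 0. The same genes are among the 5 lower than in p53-/- in that class. No member was higher than in p53+/- in these 4 classes, where 12.9%, 4.83%, 6.14% and 9.14% of all genes were. In p53 AD/- against p53-/-, 5 of 8 were lower in DN-like cells (30.2%), 2 of 8 in cycling cells (24.3%), 3 of 9 in selected cells (22.3%) and 4 of 9 in mature SP-like cells (21.3%). Tsc22d3 was higher there in DN-like cells (10.2% of all genes) and Ddit4 in mature SP-like cells (7.92%), and none in cycling (3.99%) or selected cells (5.42%). In p53-/- against p53+/-, 2 of 8 were lower in DN-like cells (5.68%), 1 of 8 in cycling cells (2.52%), 2 of 9 in selected cells (3.29%) and 1 of 9 in mature SP-like cells (3.93%). Irs2 was higher there in all 4 classes, and Per1 as well in mature SP-like cells, where 7.78%, 5.21%, 6.73% and 7.64% of all genes were in DN-like, cycling, selected and mature SP-like cells.

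The quiescent DP-like class was made of clusters that the libraries filled unevenly, so the leading members were also read within single clusters. Cluster 3 held 47.9% of the p53 AD/- cells of the class, against 2.84% of the p53-/- cells and 6.82% of the p53+/- cells. Cluster 1 held 0.72% of the p53 AD/- cells, against 46.6% of the p53-/- cells and 5.90% of the p53+/- cells, and cluster 0 held 20.9% of the p53 AD/- cells, 18.3% of the p53-/- cells and 46.7% of the p53+/- cells. In the 4 clusters with at least 100 cells in every library (0, 2, 3 and 5), the log2 ratio of Tsc22d3 against p53+/- lay between -1.75 and -0.47 in p53 AD/- and between -1.18 and -0.64 in p53-/-. That of Ddit4 lay between -1.03 and -0.51 in p53 AD/- and between -1.17 and -0.71 in p53-/-, and for both genes each interval in these clusters lay below 0. Irs2 was lower in p53 AD/- than in p53-/- in all 4 (-1.72 to -0.65), with intervals that reached above 0 in clusters 0 and 3. In p53-/- against p53+/- it was at 0.091 in cluster 0, 0.83 in cluster 2, -0.85 in cluster 3 (138 p53-/- cells) and 1.46 in cluster 5. Nr3c1 in p53 AD/- against p53+/- was at -0.35 in cluster 2 (-0.59 to -0.12) but at 0.37 in cluster 3 (0.033 to 0.72). Against p53-/-, Nr3c1 in p53 AD/- lay above 0 in 3 of the 4 clusters (-0.16 to 0.38 over the 4). Per1 in cluster 2 was at 0.40 for p53 AD/- against p53-/- (-1.09 to 2.01), opposite in sign to the class as a whole. In the 2 of 3 mature SP-like clusters that held at least 100 cells in every library, 8 and 14, Ddit4 in p53 AD/- was at 1.03 and 1.33 against p53-/-, and at -0.23 and 0.25 against p53+/-.

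**Figure D3:**
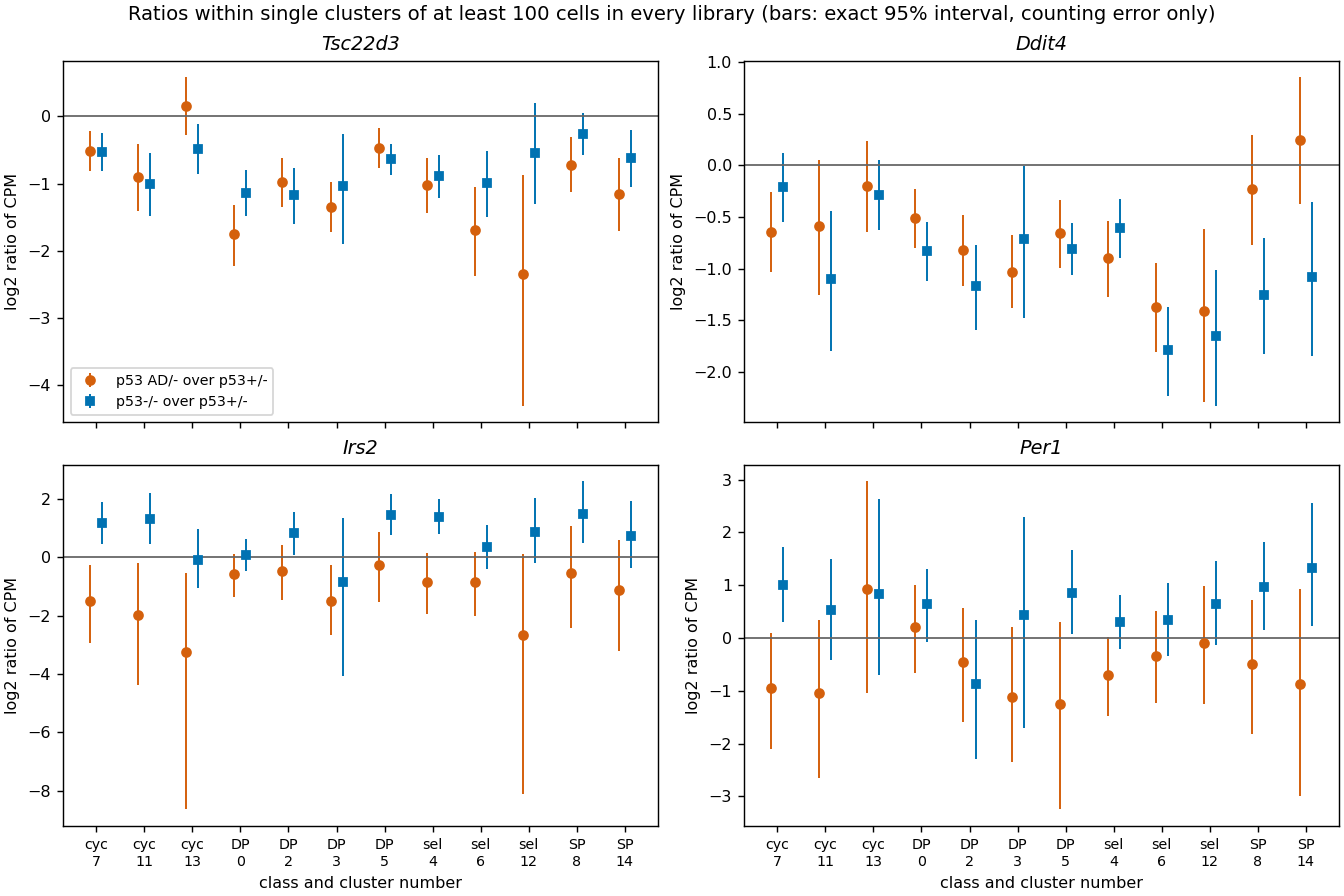
Log2 ratio of CPM for p53 AD/- over p53+/- (circles) and p53-/- over p53+/- (squares) within the 12 clusters of named classes that held at least 100 cells in each library, for Tsc22d3, Ddit4, Irs2 and Per1, with exact 95% intervals for counting error. The horizontal axis gives the class (cyc cycling, DP quiescent DP-like, sel selected, SP mature SP-like) and the cluster number. Both symbols lie below 0 for Tsc22d3 and Ddit4 in all 4 DP clusters and part for Ddit4 in the 2 SP clusters shown, whereas for Irs2 the circle lies below the square in all 12.

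Of 14 chaperone genes of the complex that holds the receptor ready for hormone, 0 stood 1.5-fold lower in p53 AD/- than in p53+/- in quiescent DP-like cells (15.4% of all genes) and 3 stood higher (6.83%), with a median log2 ratio of 0.32. These are small counts beside those shares, and nothing particular to the chaperones is read from them. Hspa8, the constitutive heat shock protein 70, had 790.4 CPM in p53 AD/-, against 501 in p53-/- cells and 423 in p53+/- cells. Fkbp4, a chaperone partner that aids the receptor's way to the nucleus, had 97.8 CPM in p53 AD/-, against 66.2 in p53-/- cells and 49.4 in p53+/- cells. Its log2 ratio in p53 AD/- was 0.99 against p53+/- (0.84 to 1.13) and 0.56 against p53-/- (0.42 to 0.71), so Fkbp4 and Fkbp5 lay on opposite sides of 0 in both. Ppid and Ppp5c, which bind heat shock protein 90, stayed within 0.38 of 0 in all 3 pairs.

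Coregulators link the receptor to chromatin and the transcription machinery. Of 14 measured, 6 stood 1.5-fold lower in p53 AD/- than in p53+/- (median -0.49), where 15.4% of all genes did, and 8 lower than in p53-/- (median -0.70), where 22.1% did. In p53-/- against p53+/- (median 0.13), none of the 14 was 1.5-fold lower, where 3.77% of all genes were, or higher, where 6.72% were. With 14 genes, nothing is read from that count. Ep300, a histone acetyltransferase, had 73.7 CPM in p53 AD/-, against 148 in p53-/- cells and 120.1 in p53+/- cells. Ncoa3, a coactivator of nuclear receptors, had 29.3 CPM in p53 AD/-, against 50.2 in p53-/- cells and 47.6 in p53+/- cells. Ncor1, a corepressor, had 459 CPM in p53 AD/-, against 616 in p53-/- cells and 499.5 in p53+/- cells, and Smarcd1, of a chromatin remodelling complex, had 124 CPM in p53 AD/-, against 123 in p53-/- cells and 122 in p53+/- cells, so the list did not move as one.

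Of 33 other genes known to respond to glucocorticoid, 21 passed the minimum in quiescent DP-like cells. In p53 AD/- 10 stood 1.5-fold lower than in p53+/- (median -0.56; 15.4% of all genes) and 12 lower than in p53-/- (median -0.66; 22.1%). In p53-/- against p53+/- 1 was lower (3.77% of all genes) and 4 were higher (6.72%), with a median of 0.091. Zfp36l2, which promotes mRNA decay, had 67.3 CPM in p53 AD/-, against 266 in p53-/- cells and 416 in p53+/- cells. It was low in p53-/- too, as Tsc22d3 and Ddit4 were, with a log2 ratio of -0.65 against p53+/- (-0.71 to -0.59). Cebpb, a transcription factor, had 5.58 CPM in p53 AD/-, against 17.9 in p53-/- cells and 12.8 in p53+/- cells, in the order of Irs2 and Per1. Nfkbia, an inhibitor of NF-kappaB, had 442 CPM in p53 AD/-, against 325 in p53-/- cells and 306 in p53+/- cells, and Btg2, an antiproliferative gene, 689.7 CPM in p53 AD/-, against 526 in p53-/- cells and 619 in p53+/- cells, so both were highest in p53 AD/-. Of 9 genes of steroid synthesis and the mineralocorticoid receptor, 3 passed the minimum, of which 2 stood 1.5-fold lower in p53 AD/- than in p53+/- (15.4% of all genes) and 0 higher (6.83%). Hsd11b1, which regenerates active glucocorticoid within cells, had 69.6 CPM in p53 AD/-, against 69.1 in p53-/- cells and 55.5 in p53+/- cells.

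Genes related to single members were set beside them. Of 10 clock genes, the company of Per1, 3 stood 1.5-fold lower in p53 AD/- than in p53+/- (15.4% of all genes) and 5 lower than in p53-/- (22.1%). Nr1d2, a clock repressor, had 7.86 CPM in p53 AD/-, against 19.6 in p53-/- cells and 17.6 in p53+/- cells, and Cry2, the partner of the period proteins, 5.58 CPM in p53 AD/-, against 17.3 in p53-/- cells and 10.6 in p53+/- cells. Clock itself had 23.3 CPM in p53 AD/-, against 27.5 in p53-/- cells and 20.3 in p53+/- cells. Of 15 immediate early genes, 7 were 1.5-fold lower in p53 AD/- than in p53+/- (15.4% of all genes) and 10 lower than in p53-/- (22.1%), and 7 were higher (6.72%) and 3 lower (3.77%) in p53-/- than in p53+/-. Nr4a1, a gene induced by antigen receptor signals, had 5.45 CPM in p53 AD/-, against 77.1 in p53-/- cells and 18.7 in p53+/- cells, the order of Irs2 with larger gaps. Jund had 901 CPM in p53 AD/-, against 672 in p53-/- cells and 649 in p53+/- cells, so this list did not move as one either.

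Of 9 relatives of Sgk1 and Irs2, 3 were 1.5-fold lower in p53 AD/- than in p53+/- (15.4% of all genes). Among them was Igf1r, the insulin-like growth factor receptor gene, with 14.3 CPM in p53 AD/-, against 36.3 in p53-/- cells and 23.9 in p53+/- cells. Sgk3, a kinase related to Sgk1, had 31.3 CPM in p53 AD/-, against 26.2 in p53-/- cells and 32.1 in p53+/- cells. Of 16 FOXO factors and targets, 6 were 1.5-fold lower (15.4% of all genes) and 2 higher (6.83%) in p53 AD/- than in p53+/-, with Foxo4 at 7.36 CPM in p53 AD/-, against 18.9 in p53-/- cells and 15.7 in p53+/- cells, and Klf2 at 13.6 CPM in p53 AD/-, against 9.78 in p53-/- cells and 7.62 in p53+/- cells. Of 11 arrestin, thioredoxin and glucose sensor genes around Txnip, 2 were 1.5-fold lower in p53 AD/- than in p53+/- (15.4% of all genes), among them the glucose transporter gene Slc2a3 (20 UMIs in p53 AD/-, against 81 in p53-/- cells and 103 in p53+/- cells), and the median was 0.019. Of 8 stress and mTOR brake genes around Ddit4, none was 1.5-fold lower than in p53+/-, either in p53 AD/- (15.4% of all genes) or in p53-/- (3.77%). Eif4ebp1, a target of mTORC1, had 18.9 CPM in p53 AD/-, against 9.70 in p53-/- cells and 10.8 in p53+/- cells. Of 21 p53 targets, 4 were 1.5-fold lower in p53 AD/- than in p53+/- (15.4% of all genes) and 1 was in p53-/- (3.77%). The median of the list in p53 AD/- against p53+/- was -0.17, and nothing is read from these counts. Apaf1, a gene of the apoptosome, had 13.1 CPM in p53 AD/-, against 25.3 in p53-/- cells and 24.3 in p53+/- cells, and does not stand for the list. Free RNA was not assessed for the genes of these lists.

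**Figure D4:**
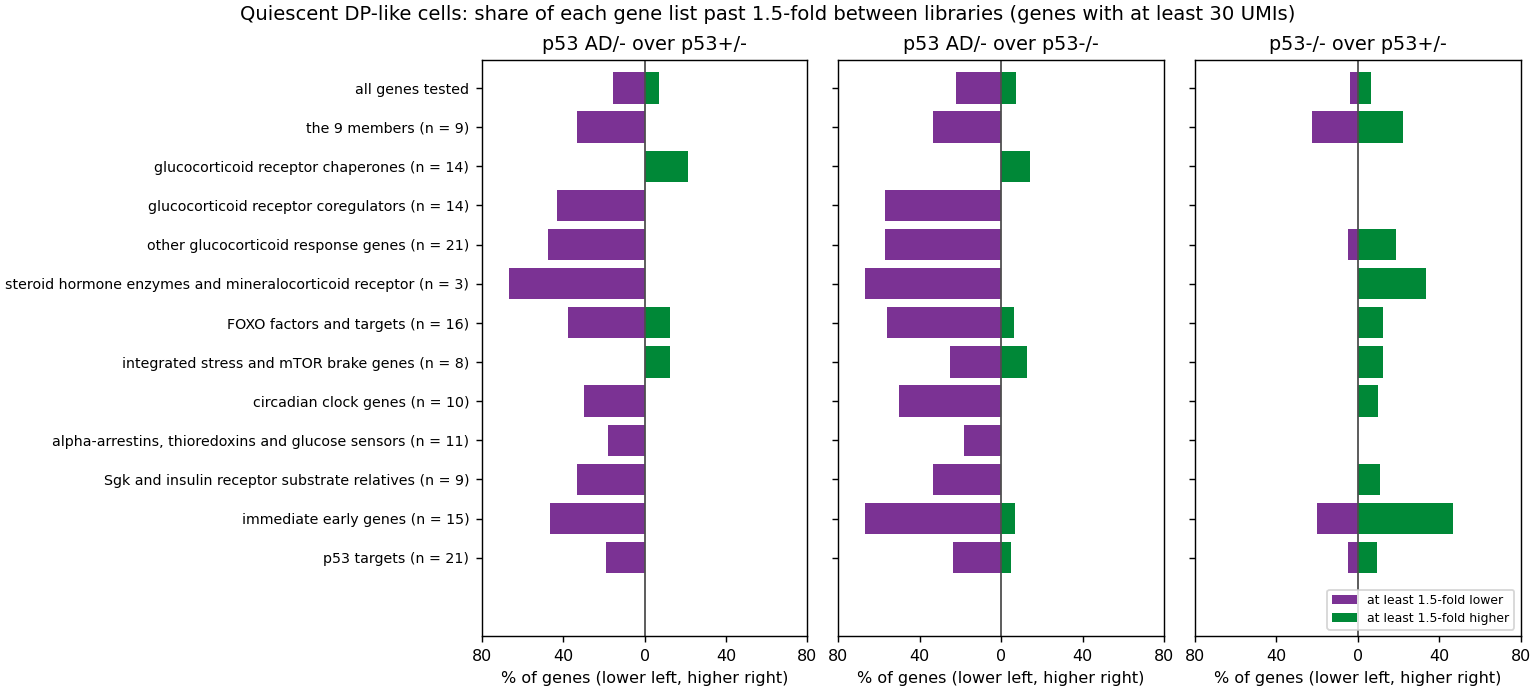
Percentage of the genes in each list that stood at least 1.5-fold lower (purple, left of 0) or higher (green, right of 0) in quiescent DP-like cells, with p53 AD/- over p53+/- on the left, p53 AD/- over p53-/- in the middle and p53-/- over p53+/- on the right; n is the number of genes with at least 30 UMIs, and all genes tested and the 9 members stand on top. The bars of coregulators and other response genes reach further left than that of all genes in the left and middle panels. So do those of the steroid, FOXO, clock, Sgk and insulin receptor substrate, immediate early and p53 target lists. A longer bar is thus not particular to the lists of glucocorticoid genes. Chaperones have a bar to the right alone in the left and middle panels.

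The 15 levels of a gene (5 classes in 3 libraries) give a profile, and the genes with the profile most like that of each member were sought among 11701 genes by Pearson's r on log2(CPM + 1). The points share libraries and depth, so r is a description. Irs2 was most like Mob1a (r = 0.96), Srrm2 (0.96) and Dvl3 (0.95), and Per1 most like Cnot6l (0.97). Tsc22d3 had the least similar best match, Abca7 (0.84), and Ddit4 was most like Dcun1d3 (0.94). The best matches of the others were Ccdc18 for Fkbp5 (0.98), Arhgap45 for Txnip (0.97), Cblb for Klf9 (0.95), Stam2 for Sgk1 (0.93) and B230354K17Rik for Nr3c1 (0.93). Between members, r was 0.90 for Sgk1 and Txnip, 0.85 for Per1 and Irs2, and 0.78 for Txnip and Ddit4. It was 0.75 for Sgk1 and Ddit4, 0.72 for Tsc22d3 and Sgk1, and 0.69 for Tsc22d3 and Ddit4. The member most like Tsc22d3 was thus Sgk1, not Ddit4. Fkbp5 ran against Sgk1 (-0.78) and Txnip (-0.77), and the receptor gene Nr3c1 had r between -0.22 and 0.57 with the other 8.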

How the data were processed

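Thymus single-cell RNA of 3 mice was used, 1 library per genotype as labelled. The authors deposited raw UMI counts per gene and barcode. These came from Cell Ranger 4.0.0, per the file headers, and GRCm38, per the submitters' processing notes. Not given in the sources used here are chemistry, annotation and use of strand, so levels are not compared between genes. Replicates were absent, so no test was made, and intervals cover counting error only.

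The members, lists, markers and rules were chosen with earlier results of these data known. Cells with under 500 genes or with 10% or more mitochondrial UMIs were left out. Scrublet called 2 barcodes in p53 AD/- and 0 in the other libraries, which is no working doublet call, so doublets are still included. The libraries were clustered together in scanpy 1.11.5 (Python 3.11.15) with 2000 variable genes that held no member and none of the other response genes, 30 components, 15 neighbours and Leiden resolution 1 (leidenalg 0.10.2). A class name needed 3 markers detected in 5% of cells and more of its markers than of any other class among a cluster's top 10 genes. UMIs were summed per class and library and given as CPM with exact Poisson intervals, and ratios have exact conditional binomial intervals, all at 95%. Genes needed 30 UMIs over the 3 libraries, and 1.5-fold stood in for a test. A member over 20 times higher in another cluster of its library is given as possible free RNA. The list genes that could be named are the 2 highest and 2 lowest of each list by p53 AD/- over p53+/- in quiescent DP-like cells with at least 100 UMIs, and some of them are left out of the text. The interval procedure was tested on simulated data. There were 17 alternatives, 2 of them added after the data were seen: other cell filters, clusterings, matched cells and totals, and TMM factors (edgeR 4.0.16, R 4.3.3). Windows and their coordinates are from RefSeq on GRCm38.p6.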

Additional observations from a re-analysis of the deposited data

Results flagged for a closer look

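The log2 ratio of Tsc22d3 in p53 AD/- over p53-/- had opposite signs in different thymocyte classes. It was 0.98 in DN-like cells (25 UMIs in p53 AD/- and 30 in p53-/-) and 0.44 in cycling cells (286 and 481 UMIs), so p53 AD/- was the higher library there. It was -0.50 in selected DP and early SP-like cells (109 and 267 UMIs) and -0.38 in mature SP-like cells (113 and 257 UMIs), so p53 AD/- was the lower one. In each of these 4 classes the interval for counting error lay on 1 side of 0. The difference between classes was not tested, since each genotype has 1 library. Over the alternatives the ratio ran from 0.088 to 1.29 in DN-like cells and from -0.77 to 0.088 in selected cells, where 0.088 is the value over all filtered cells.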

How the results depend on the processing

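No paired analysis was possible because each genotype had 1 library. Of the 10 member ratios past 1.5-fold in quiescent DP-like cells, 7 kept direction and fold under all 17 alternatives: Tsc22d3 and Ddit4 in p53 AD/- and in p53-/- over p53+/-, Irs2 in p53 AD/- over both, and Per1 in p53 AD/- over p53-/-. The alternative with a minimum of 100 UMIs leaves a ratio that passes it unchanged, so it could not remove a call. All alternatives use the same 3 libraries and say nothing about other mice. Irs2 in p53-/- over p53+/- was 0.44 with clusters weighted equally, and both Klf9 ratios lost the fold under 2 of 14 alternatives. The cause was not tested.

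Over all filtered cells, a sum that mixes class shares with levels, the member median was -0.48 in p53 AD/- over p53+/- and 0.068 in p53-/- over p53+/-. That second median was 0.14 with clusters weighted equally. Over all filtered cells Klf9 also turned to 0.084 in p53 AD/- over p53+/-, set beside DN-like cells, and to 0.015 in p53 AD/- over p53-/-, set beside DN-like, quiescent DP-like and mature SP-like cells. Per1 turned there to 0.44 in p53-/- over p53+/-, set beside DN-like cells. Without mitochondrial genes and Malat1 in the totals, 5 members stood 1.5-fold lower in p53 AD/- than in p53-/-, with Fkbp5 (-0.63) and Sgk1 (-0.59) added by the smaller total. Klf9, with 9 to 25 UMIs per library in the class, cannot be ordered at this depth.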

Other observations

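Outside the thymocyte classes, clusters rich in MHC class II genes (Cd74, H2-Aa, H2-Ab1) held 93 p53 AD/-, 186 p53-/- and 82 p53+/- cells. One of them was led by the B cell genes Igkc and Cd79a as well, so they are not given as 1 cell type. Klf9 had 47.0 CPM there in p53 AD/-, against 24.0 in p53-/- cells and 24.8 in p53+/- cells, above every thymocyte class. Most of these UMIs lay in a small cluster that also held Krt17 among its leading genes, with 38 UMIs in p53 AD/- (23 cells), 34 UMIs in p53-/- (38 cells) and 19 UMIs in p53+/- (24 cells). Within it Klf9 had 91.9 CPM in p53 AD/-, against 72.1 in p53-/- cells and 72.6 in p53+/- cells. Sgk1 had 41.9 CPM in p53 AD/-, against 75.6 in p53-/- cells and 34.1 in p53+/- cells. In p53-/- 123 of its 145 UMIs lay in the cluster led by Cd74 and Cst3 (87 cells), at 141 CPM. Irs2 had 21.5 CPM in p53 AD/-, against 29.2 in p53-/- cells and 12.4 in p53+/- cells, and here p53 AD/- was not the lowest. Tsc22d3 had 37.8 CPM in p53 AD/-, against 48.0 in p53-/- cells and 68.1 in p53+/- cells, with p53+/- on top as in quiescent DP-like cells. Fkbp5 had 16.4 CPM in p53 AD/-, against 22.9 in p53-/- cells and 33.0 in p53+/- cells. The values over all of these clusters rest on 12 to 145 UMIs each.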
